A study of Mus musculus with 8 samples.

Results

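Spinal interneurons and sensory neurons are sorted into classes by transcription factors, and 10 genes for such factors were followed here on arrays of cells from the mouse vertebral column: Gata2, Gata3, Lhx1, Lhx2, Lhx5, Lhx9, Isl1, Pou4f1, Pax2 and Tlx3. They were taken as all probes that the platform annotation gives to these genes, and they were chosen partly on the measured difference of Lhx5 and Gata3 between the null and wildtype arrays. They are 10 of 19057 genes with a probe of their own in that annotation, which held 15 probes for them among the 45281 on the array. Of these, 9 could be tied to a row of intensity values, and 7 probes of 6 genes passed the detection filter, a detection p-value under 0.05 on at least 4 of the 8 arrays. A member that passed only through arrays where it was bright had to differ, so a count over the 7 probes supports nothing on its own.

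The arrays were hybridized with RNA from EGFP-positive cells that had been sorted from E12.5 vertebral columns. The null group (4 arrays, labelled Bapx1 HOMO) came from embryos homozygous for Bapx1 tm4.Tlu, in which the EGFP sequence directly follows the Bapx1 start codon. The wildtype group (4 arrays, labelled Bapx1 WT) came from Bapx1 +/tm2.Tlu embryos, in which EGFP is made from an IRES placed behind an intact Bapx1 reading frame. Both groups carried the strain label C57BL/6J;129. EGFP is driven from the Bapx1 locus in both alleles, so the sort takes cells with an active Bapx1 promoter. Copies of the reporter and the way EGFP is translated differ with genotype, and what this did to the sorted population cannot be told apart from genotype. The study calls its replicates biological, and the sources used here do not say how many embryos lay behind each array. Where that number is unknown, p-values measure only the spread between these samples.

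As background, GATA factors bind DNA through zinc fingers, and Gata2 acts upstream of Gata3 in the V2b class of inhibitory interneurons of the ventral spinal cord. LIM-homeodomain factors work with the cofactor Ldb1: Lhx1 and Lhx5 mark several classes of mostly inhibitory interneurons, Lhx2 and Lhx9 mark the most dorsal class of commissural neurons, and Isl1 marks motor neurons, a dorsal interneuron class and sensory neurons. The POU factor Pou4f1 (Brn3a) and the homeodomain factor Tlx3 mark sensory neurons and excitatory dorsal interneurons, and the paired-box factor Pax2 marks inhibitory interneurons. Several of them also act outside neurons: Gata2 also acts in blood and endothelial cells, and Lhx1 and Pax2 also act in the developing kidney.

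The vertebral column label was checked first. Of 19 listed markers of sclerotome and cartilage 18 passed the filter, at levels from bright to near background. Sox9 was at 13.05 ± 0.10 in the null and 13.73 ± 0.10 in the wildtype (log2 intensity after background correction and quantile normalization, SD, n = 4 each). Pax9, at 4.80 in the null and 5.07 in the wildtype, was detected on 2 null and 3 wildtype arrays. Nkx3-2, the current symbol of Bapx1, read 6.77 ± 0.98 in the null and 4.55 ± 0.20 in the wildtype, was detected on 4 null and 0 wildtype arrays, and exceeded the wildtype bound at least 3.67-fold (limma, adjusted p = 0.0435, and 0.0735 to 0.1345 without any 1 array other than null replicate 1). Where its probe lies on the altered transcripts is not known from the sources used here, so this value checks no label. Across all 19965 probes tested, 156 passed an adjusted p under 0.05, which is 0.781% of them, with 0.386% higher and 0.396% lower in the null. Between 41.0% and 45.8% of probes were detected per array. Null replicate 1 and wildtype replicate 2 stood apart: their mean correlation with the other arrays of their own genotype was 0.972 and 0.969, against 0.979 to 0.985 for the remaining 6. Precision is limited by there being 4 arrays a group.

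Of the 7 member probes, 2 passed the threshold of the fit across all probes, both in the higher direction, where 0.386% of tested probes did so. These were the probes of Gata3 and Lhx5, whose contrast entered the choice of the genes, so the count is given as a description and nothing is read from it. In 3 member probes, those of Lhx5 and Gata3 and 1 of Lhx1, all 4 null arrays lay above all 4 wildtype arrays, as they did in 4.76% of tested probes, and in 0 all null arrays lay below, where 6.05% of tested probes had that order. In bulk samples such as these, fewer cells of a type and less RNA per cell cannot be told apart.

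**Figure D1:**
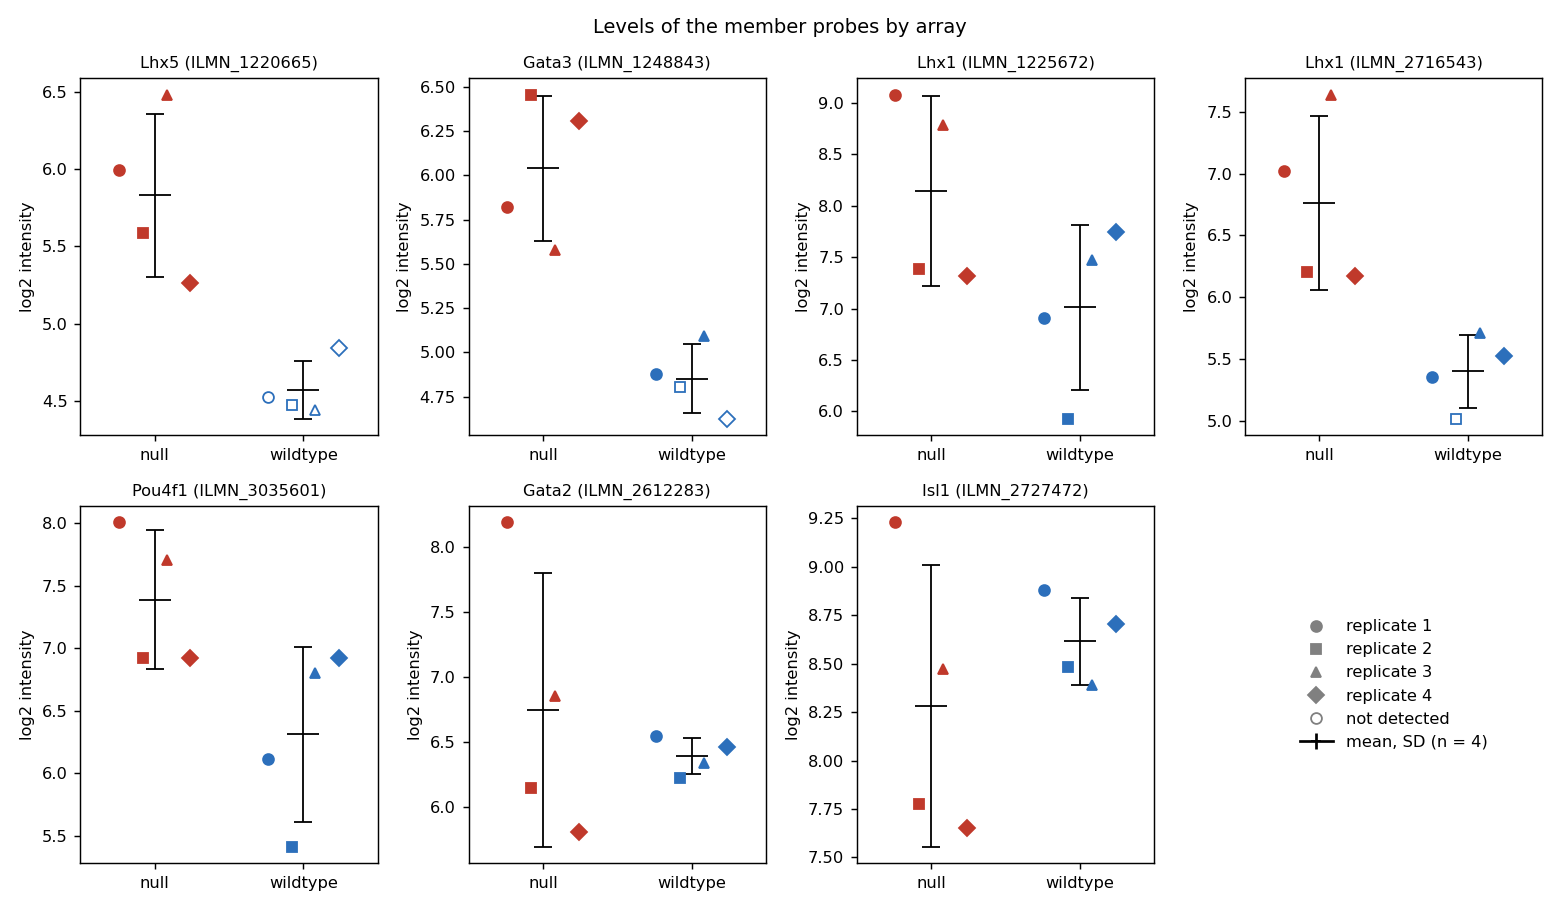
Normalized log2 intensity (vertical axis) of the 7 member probes that passed the filter, with the 4 null arrays at left and the 4 wildtype arrays at right in each panel; symbols give the replicate, open symbols were not detected, and bars show the mean and SD. Lhx5 and Gata3 did not overlap between genotypes, whereas Gata2 and Isl1 spread more widely over the null arrays than over the wildtype arrays.

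Lhx5, whose product specifies inhibitory interneurons of the dorsal cord together with Lhx1, was read by 1 probe, ILMN_1220665. Its background-subtracted intensity was 36.1, 42.6, 90.4 and 30.6 in null replicates 1 to 4, against 4.6, 1.7, 1.3 and 8.2 in wildtype replicates 1 to 4. Intensities before normalization also carry the brightness of the whole array: on null replicates 2, 3 and 4, 65.1%, 53.1% and 67.5% of all tested probes lay above every wildtype array, and on null replicate 1 6.71% did. Lhx5 was detected on 4 null and 0 wildtype arrays, a pattern found in 0.265% of tested probes, and null replicate 3 was the brightest. The normalized levels were 5.83 ± 0.53 in the null and 4.57 ± 0.19 in the wildtype (log2, SD, n = 4 each). Because the wildtype signal was not above background, the fold is a bound, and Lhx5 was at least 1.91-fold higher in the null. That bound sets the mean of the null arrays against, for each wildtype array, the lowest signal among detected probes or the probe's own value, whichever is higher.

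Lhx1, the close relative of Lhx5, had a pair of probes. With ILMN_1225672 the intensity was 374.4, 201.3, 518.0 and 199.3 on the null arrays, against 108.6, 33.0, 137.9 and 124.0 on the wildtype arrays. Null replicates 1 and 3 were the high arrays and wildtype replicate 2 the low one. After normalization this probe read 8.14 ± 0.92 in the null and 7.01 ± 0.80 in the wildtype, a difference of 1.13 (2.19-fold), and the groups overlapped, since wildtype replicates 3 and 4 (7.47 and 7.74) lay above null replicates 2 and 4 (7.38 and 7.32).

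The dimmer Lhx1 probe, ILMN_2716543, had intensities of 83.5, 77.5, 225.1 and 78.8 in the null, against 26.6, 12.6, 31.8 and 18.2 in the wildtype, where 3 of 4 arrays detected it. It read 6.76 ± 0.71 in the null and 5.40 ± 0.29 in the wildtype (difference 1.36, 2.57-fold) with no overlap, and it did not pass the threshold of the fit. Both Lhx1 probes thus had positive differences, and they differed in whether the genotypes overlapped.

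Gata3, the GATA factor that maintains V2b identity, was read by ILMN_1248843. Its intensity was 30.7, 96.0, 39.2 and 88.4 on the null arrays, against 14.1, 9.1, 16.4 and 4.9 on the wildtype arrays. All null arrays detected it, whereas of the wildtype arrays only replicates 1 and 3 did. The normalized levels were 6.04 ± 0.41 in the null and 4.85 ± 0.19 in the wildtype, a difference of 1.19 (2.28-fold). Here null replicates 2 and 4 were the bright ones (6.45 and 6.30) and null replicates 1 and 3 the dim ones (5.82 and 5.58), the reverse of Lhx1 and Lhx5. Neither call held when any 1 wildtype array was left out, or null replicate 2 or 4, and without null replicate 3 that of Gata3 alone remained; without null replicate 1 both remained and the dimmer Lhx1 probe was called too, giving 3 member calls in a fit that called 15.9% of all tested probes, among them 9.26% of all tested probes as higher.

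Gata2, which lies upstream of Gata3 in V2b neurons and also acts in blood and endothelium, was detected on all 8 arrays by ILMN_2612283. Its intensity was 196.6, 73.9, 122.6 and 56.3 in the null, against 80.8, 44.0, 56.1 and 44.2 in the wildtype. The normalized levels were 6.75 ± 1.05 and 6.39 ± 0.14, with a difference of 0.36 that was smaller than the null SD. Null replicate 1, at 8.19, lay above every other array, and null replicates 2 and 4, at 6.15 and 5.81, lay below every wildtype array. Leaving out null replicate 1 turned the difference to -0.12. Gata2 and Gata3 therefore did not share a pattern: the genotypes of Gata3 were apart with null replicates 2 and 4 highest, and those of Gata2 overlapped with these arrays lowest.

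Isl1, a LIM-homeodomain factor of motor and sensory neurons, had the only negative difference among the 7 probes. ILMN_2727472 gave intensities of 413.6, 269.7, 410.7 and 256.1 in the null, against 470.1, 295.7, 272.3 and 258.8 in the wildtype, with detection on all 8 arrays. It read 8.28 ± 0.73 in the null and 8.61 ± 0.22 in the wildtype, and its difference of -0.33 was within the null SD. It was -0.65 without null replicate 1, -0.16 without null replicate 2 and -0.12 without null replicate 4, and with array weights, where 31% of all tested probes were called, it was -0.71 and was called as lower. Null replicate 1 (9.23) was again the highest array, and null replicates 2 and 4 (7.78 and 7.65) were the lowest.

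Pou4f1, a POU factor of sensory neurons, had 3 annotated probes, of which 1 could be tied to intensity values. That probe, ILMN_3035601, had intensities of 173.8, 140.5, 236.4 and 146.9 on the null arrays, against 56.7, 19.7, 82.9 and 65.3 on the wildtype arrays. After normalization it read 7.39 ± 0.55 in the null and 6.31 ± 0.70 in the wildtype, a difference of 1.08 (2.11-fold). The overlap then came from a single array, wildtype replicate 4, whose 6.93 lay just above null replicates 2 and 4, both at 6.92.

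The remaining genes had no probe among those tested. Both Lhx9 probes were matched, were detected on 0 of 8 arrays and lay between -5.3 and 7.4 in the null and between -5.5 and 11.3 in the wildtype, so no fold is given. Lhx2 and Tlx3, with 1 probe each, Pax2, with a pair, and the other probes of Pou4f1 could not be tied to 1 row of the intensity table. For Lhx2, 1 Pax2 probe and both of these Pou4f1 probes, the 5494 rows that could hold them were all at or below 1 on the 7 arrays that the tables share, and of these rows 1 was detected on any null array and 0 on any wildtype array. The other Pax2 probe could be any of 7 rows and the Tlx3 probe any of 26, of which 0 were detected on any array, with highest intensities of 4.5 and 6.7. Signal at this level bounds what the probe detected and does not show that a transcript was absent.

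The members were next set against each other with the mean of each genotype removed, which does not use the difference between the genotypes. For each gene the deviation of every array from the mean of its own genotype was taken, and Pearson's r was computed over the 8 arrays. These values are descriptions, since the arrays share their depth and cell content for all genes. Isl1 and Gata2 deviated together (r = 0.97), as did Lhx1 and Pou4f1 (r = 0.98), and Lhx1 with Lhx5 gave 0.72 by the brighter Lhx1 probe and 0.87 by the dimmer one. Gata3 ran against all 5 other genes: r was -0.89 with Lhx5, -0.71 with Isl1, -0.63 with Lhx1, -0.61 with Gata2 and -0.48 with Pou4f1. Each r pools both genotypes, so it need not hold in each of them, and r per genotype was not computed. In wildtype replicates 1 to 4 Gata3 read 4.88, 4.80, 5.09 and 4.62. Pou4f1 read 6.11, 5.41, 6.80 and 6.93 there, which is no inverse order. Of the 10950 genes ordered by likeness to Lhx5, each placed by its probe of highest r, Gata3 stood at position 10942. That rule moves genes with several probes up the order. The wildtype values of Lhx5 were all below detection, so the order there rests on undetected signal.

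**Figure D2:**
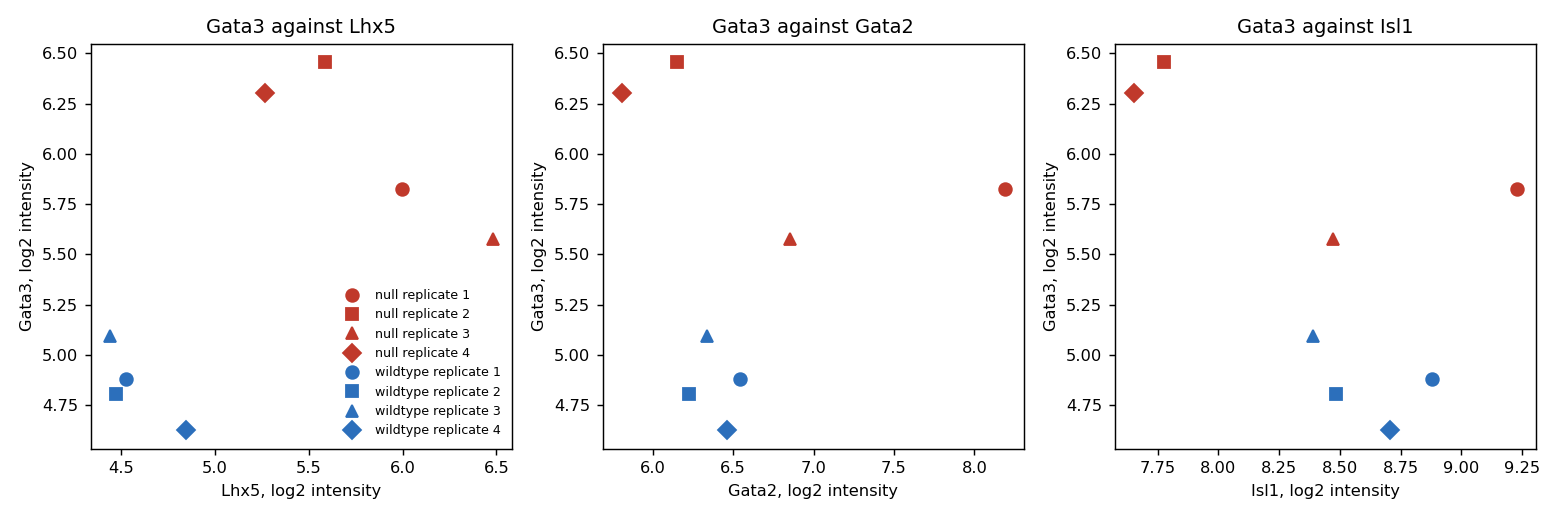
Gata3 (vertical axis) against Lhx5, Gata2 and Isl1 (horizontal axes), all as normalized log2 intensity, with the 4 null arrays in red and the 4 wildtype arrays in blue and symbols for the replicate. Within the null arrays the highest Gata3 values, 6.45 and 6.30 in replicates 2 and 4, go with the lowest values of the other gene in each panel.

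Among non-members, the genes whose deviations were most like those of Lhx5 were Abcd3, a peroxisomal transporter (r = 0.97), Stxbp2, a syntaxin-binding protein of exocytosis (0.95), Slc6a17, a vesicular transporter of neurons (0.94), Zdhhc12, a palmitoyltransferase (0.94), and Ptafr, the receptor for platelet-activating factor (0.94). The differences of Abcd3, Stxbp2 and Slc6a17 between the genotypes were negative (-0.86, -0.73 and -2.39), whereas that of Lhx5 was positive. For Gata3 the list was Dsg2, a desmosomal cadherin (0.98), Dok5, an adaptor of receptor kinases (0.97), Iyd, an iodotyrosine deiodinase (0.96), Rtn3, a reticulon (0.96), and Ptp4a2, a phosphatase (0.95). Likeness over 8 arrays says nothing of shared function.

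General neuronal transcripts are given beside the members. Of 24 pan-neuronal markers 20 passed the filter, 0 were called by their brightest probe, 3 by any probe, 15 had an unadjusted limma p under 0.05 (2528 of all 10951 genes tested did), and 19 had a positive difference, with a median of 0.87 against -0.03 over all genes, 45.7% of which were positive. The 2 of smallest p were Dcx, a microtubule protein of young neurons, at 8.69 ± 0.25 in the null and 7.12 ± 0.70 in the wildtype (limma, adjusted p = 0.052), and Ina, an intermediate filament protein, at 7.37 ± 0.53 and 5.62 ± 0.67 (limma, adjusted p = 0.0535). Tubb3, Nefl, Snap25 and L1cam did not pass the filter. The mean of the list on each array, relative to the mean of each gene, was 0.73, 0.15, 0.80 and 0.11 in null replicates 1 to 4, against -0.41, -0.99, -0.34 and -0.05 in wildtype replicates 1 to 4. The summed level of the list ranged from 12.19 to 12.87 in the null and from 11 to 11.86 in the wildtype (log2). Null replicates 1 and 3 were thus high on this list and wildtype replicate 2 low, as for Lhx1.

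Over the arrays of both genotypes, with the mean of each genotype removed, the pan-neuronal mean followed Lhx1 (r = 0.97 and 0.84 for its probes), Pou4f1 (0.94), Lhx5 (0.76), Isl1 (0.64) and Gata2 (0.61), and ran against Gata3 (-0.65). The mean of the list was also subtracted from each member detected on at least 3 arrays of each genotype. Lhx5 and Gata3 were left out, since signal at background cannot fall with the list. The differences became 0.24 and 0.47 for the brighter and the dimmer Lhx1 probe, 0.18 for Pou4f1, -0.53 for Gata2 and -1.22 for Isl1. The genotypes then overlapped for Gata2, Pou4f1 and the brighter Lhx1 probe. The dimmer Lhx1 probe, not detected on wildtype replicate 2, was higher on all 4 null arrays by a narrow margin (6.055 in null replicate 2 against 6.043 in wildtype replicate 3). Isl1 was lower on all 4 null arrays (7.54 to 8.50, against 8.72 to 9.47 in the wildtype). The list mean itself differed by 0.89 without overlap, and the subtraction takes this from every probe. A probe with equal levels in both genotypes would therefore also become lower in the null. The share of all tested probes that would do so, or that would lie apart in either direction, was not computed. Nothing is therefore read from the order of Isl1 or of the dimmer Lhx1 probe. The part of neuronal content in the member differences was not tested.

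Transmitter genes, which separate inhibitory from excitatory neurons, had positive differences of both kinds. The 3 inhibitory genes that passed were Slc32a1, the vesicular GABA transporter, with 7.23 ± 0.74 in the null and 5.71 ± 0.94 in the wildtype (limma, adjusted p = 0.135), Gad2, with 6.44 ± 0.85 and 5.16 ± 0.59 (0.139), and Gad1, with 6.47 ± 0.70 and 5.44 ± 0.61 (0.169), the last 2 being enzymes of GABA synthesis. Their median difference was 1.28, and 0 of 3 were called although all 3 had an unadjusted p under 0.05. Of excitatory genes 2 passed and 0 were called, both with an unadjusted p under 0.05: Slc17a6, the glutamate transporter VGLUT2, with 7.16 ± 0.27 in the null and 6.12 ± 0.71 in the wildtype (limma, adjusted p = 0.122), and Slc17a8, with a difference of 0.44. On the inhibitory mean, null replicates 1 and 3 (1.22 and 1.37) were above null replicates 2 and 4 (0.01 and -0.05). Slc17a6 had the same split on a smaller scale (7.37, 6.91, 7.42 and 6.96 in null replicates 1 to 4), and the dim Slc17a8 the opposite one (5.05, 5.42, 5.15 and 5.64), so the mean of the pair hides it.

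**Figure D3:**
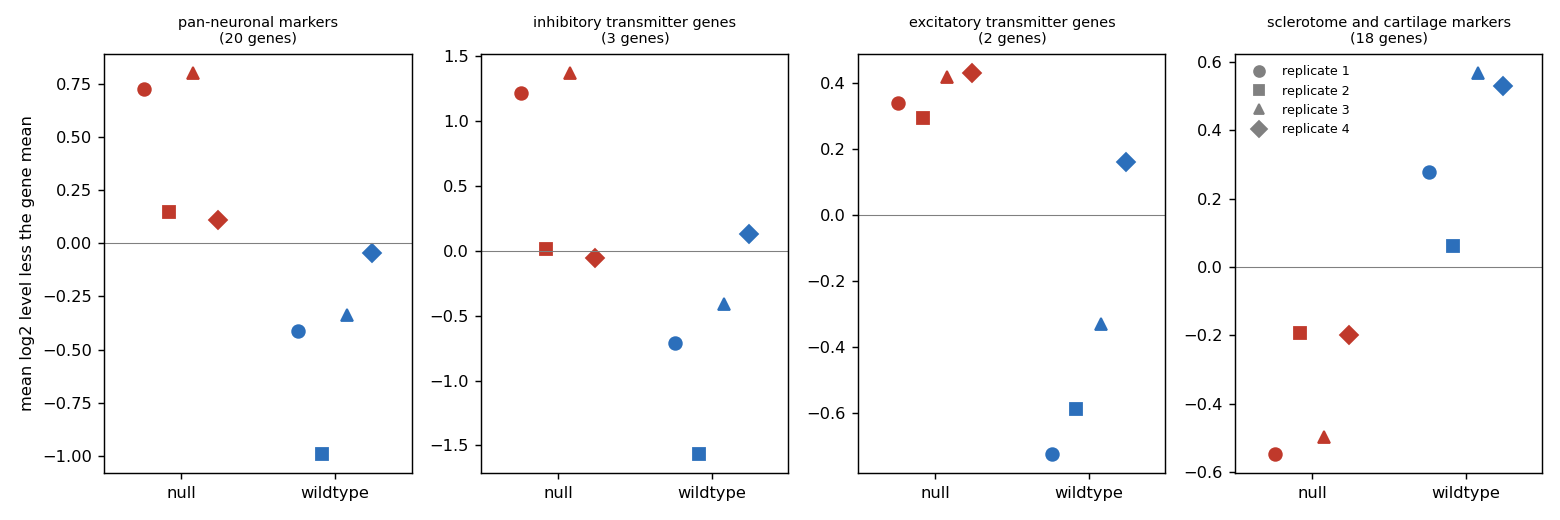
Mean over the genes of each list of log2 level less the mean of each gene (vertical axis), per array, with null arrays in red at left and wildtype arrays in blue at right and symbols for the replicate. The pan-neuronal mean was 0.11 to 0.80 on null arrays and -0.99 to -0.05 on wildtype arrays, and the sclerotome and cartilage mean was -0.55 to -0.19 on null arrays and 0.06 to 0.57 on wildtype arrays.

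Other factors of the same neuron classes were mostly not called. Among relatives of the members, 5 of 17 passed, 0 were called (1 at an unadjusted p under 0.05) and the median difference was 0.13. The smallest p was that of Pax8, which acts with Pax2 in inhibitory interneurons and in the kidney, at 5.46 ± 0.47 in the null and 4.70 ± 0.19 in the wildtype (limma, adjusted p = 0.117), and Lhx6, a factor of forebrain interneurons, came next with a difference of -0.61. Of cofactors of LIM and GATA proteins 10 of 17 passed, with 0 called and 0 at an unadjusted p under 0.05 (median 0.21), with differences of 0.52 for the single-stranded DNA-binding protein Ssbp4 and 0.71 for the LIM-only protein Lmo2. Ldb1, the partner of LIM-homeodomain factors, was at 12.66 ± 0.06 in the null and 12.67 ± 0.04 in the wildtype.

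Of other dorsal interneuron factors only 3 of 19 passed, 0 were called (Pax8 alone had an unadjusted p under 0.05) and the median was -0.0043. Lbx1, Lmx1b and Ptf1a, which define dorsal classes, were not above the filter, and Barhl1, a factor of the most dorsal class, differed by -0.02. Of 9 sensory neuron genes that passed, of 19 listed, 0 were called, 1 of them with p under 0.05 before adjustment (median -0.02), with differences of 0.94 for the neurotrophin receptor Ntrk3 (limma, adjusted p = 0.125) and 0.47 for the proneural factor Neurod1. Sensory genes Prph, Ret and Neurog1 did not pass.

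Among ventral interneuron and motor neuron factors 6 of 19 passed, and 2 fell, both progenitor factors of the ventral cord that are not restricted to it. Nkx2-2 read 5.23, 4.82, 5.13 and 4.71 on the null arrays, against 6.10, 6.30, 6.20 and 6.34 on the wildtype arrays (difference -1.26, limma, adjusted p = 0.00755). Nkx6-1 read 8.55 ± 0.21 in the null and 9.81 ± 0.31 in the wildtype, also a difference of -1.26 (limma, adjusted p = 0.0169). Leaving out any 1 array kept the call of Nkx2-2 (adjusted p at most 0.0357, limma), whereas that of Nkx6-1 was lost without null replicate 2 or 4 or wildtype replicate 4 (0.0567, 0.0747 and 0.0507). The motor neuron factor Mnx1 and the V2 relatives Tal1 and Tal2, which share the V2b class with Gata2 and Gata3, did not pass the filter. The list median was -0.12.

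**Figure D4:**
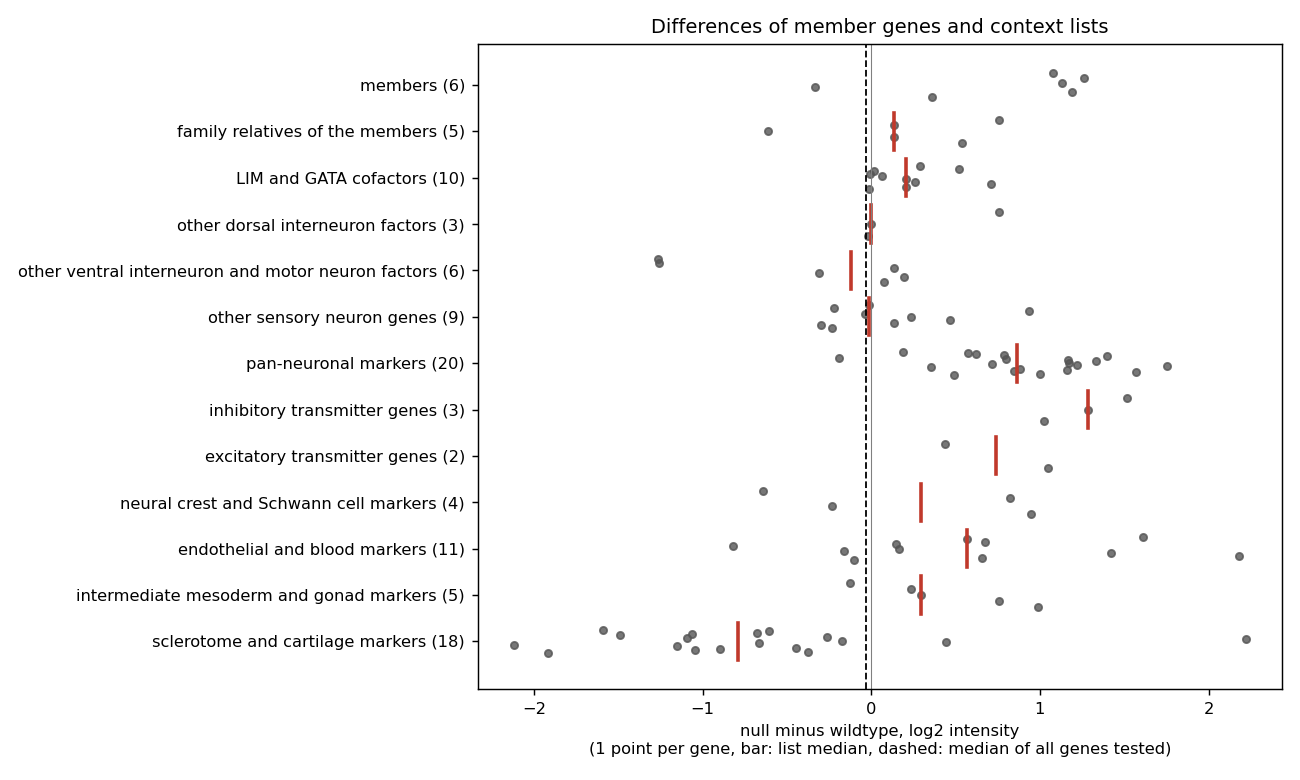
Difference in log2 intensity, null minus wildtype (horizontal axis), of each gene that passed the filter in the members and in 12 lists, with 1 point per gene, the number of genes in brackets, a red bar at the median of each list other than the members, and a dashed line at the median of all genes tested (-0.03). Pan-neuronal markers lie mostly above 0 (median 0.87) and sclerotome and cartilage markers mostly below (median -0.79), with Nkx3-2 as the point at 2.22.

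Markers of the other cells in which members are known are given for the same arrays. Of 16 endothelial and blood markers 11 passed, and 1 rose, the angiopoietin receptor Tek, at 6.90, 8.33, 7.46 and 8.05 on the null arrays, against 6.17, 5.63, 6.35 and 6.16 on the wildtype arrays (difference 1.61, limma, adjusted p = 0.0435). By limma's unadjusted p, 5 of the 11 were under 0.05: besides Tek these were the endothelial adhesion molecules Cdh5 (difference 2.18), Pecam1 (0.57) and Emcn (1.42) and the receptor Kit (0.67), none of them called, and in all 5 the null arrays lay above the wildtype arrays. Of all 10951 genes tested, 2528 were under 0.05, and in 614 all null arrays lay above all wildtype arrays. Genes of small p tend to lie apart, so nothing more is read from that order. Cdh5 read 7.55, 9.45, 8.15 and 9.55 on the null arrays, against 6.96, 4.51, 7.18 and 7.34 on the wildtype arrays. The list median was 0.57, with 8 of 11 differences positive and those of Cd34 (-0.10), Hbb-bh1 (-0.82) and Hba-a1 (-0.16) negative. The list mean was 0.03 to 0.55 in the null and -0.99 to 0.60 in the wildtype. Null replicates 2 and 4 lay above null replicates 1 and 3 for this mean, as for Gata3. The same held for Tek, Cdh5, Pecam1, Emcn, Cd34 and Hbb-y, but not for Kit, Cd93, Hbb-bh1, Hba-x and Hba-a1. Tek lost its call without any 1 array other than null replicate 1 (adjusted p 0.0735 to 0.14, limma). The summed level of the list ranged from 11.72 to 12.18 in the null and from 10.64 to 12.94 in the wildtype, and Kdr, Tie1, Gata1, Alas2 and Ptprc did not pass. The part of these cells in the Gata2 and Gata3 values was not tested.

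Of 12 intermediate mesoderm and gonad markers 5 passed and 0 were called, 3 with an unadjusted p under 0.05 (median 0.30), with Osr1, a factor of early kidney mesoderm, at 8.01 ± 0.16 in the null and 7.02 ± 0.58 in the wildtype (limma, adjusted p = 0.0912). Its list mean lay between 0.13 and 0.35 in the null and between -0.49 and 0.07 in the wildtype. Of 8 neural crest and Schwann cell markers 4 passed and 1 rose, the neurotrophin receptor Ngfr, at 10.72 ± 0.12 in the null and 9.90 ± 0.06 in the wildtype (limma, adjusted p = 0.0149, and 0.0746 without null replicate 4 and 0.057 without wildtype replicate 3). By the unadjusted p, 3 of 4 were under 0.05. Sox10, the defining factor of the crest lineage, differed by -0.64 (limma, adjusted p = 0.108), the endothelin receptor Ednrb by 0.95 (0.113) and the myelin gene Mbp by -0.23 (0.462). Their part in the values of Lhx1, Isl1 and Pou4f1 was not tested.

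Markers of the cartilage lineage had mostly negative differences. Of the 18 sclerotome and cartilage markers tested, 7 fell and 1, Nkx3-2 itself, rose, and the median difference was -0.79. The 4 of smallest p were the cartilage regulator Sox5 (-1.49, limma, adjusted p = 0.00671), the collagen gene Col9a1 (-0.90, 0.0201), the proteoglycan gene Acan (-1.92, 0.0223) and the sclerotome factor Uncx (-1.59, 0.0254). Sox5 kept its call when any 1 array was left out (adjusted p at most 0.0343, limma), and the other 3 each lost it without null replicate 3 or wildtype replicate 3 or 4 (adjusted p between 0.0573 and 0.0774). Acan and Col9a1 also lost it without wildtype replicate 1 (0.0606 and 0.0545), Col9a1 and Uncx without null replicate 4 (0.0773 and 0.0748), and Uncx without null replicate 2 (0.0871). Null replicates 1 and 3, the highest on the pan-neuronal list, were the lowest on this one (-0.55 and -0.50, against -0.19 and -0.20 in null replicates 2 and 4).

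Promoter sequence from RefSeq (GRCm38.p6) was available for 9 members in 13 windows that run from 250 bases before to 50 bases after each start. No window was available for Lhx5, so it was not searched. Both strands were searched for 2 forms of the GATA site, AGATAA and TGATAA, which do not overlap in the matches found, since the members include 2 GATA factors. Of all 32851 windows 11.2% hold AGATAA and 9.05% hold TGATAA. Isl1 holds each form once, and the 2 stretches of 30 bases around them are printed because Isl1 alone among the members had both; capitals mark the match, which begins 11 bases after the start (chr13:116309661-116309690, minus strand) and 115 bases before it (chr13:116309786-116309815, minus strand).
Isl1, AGATAA match: agtttgagtaagAGATAAggaagagaggtg
Isl1, TGATAA match: ggggctgaaataTGATAAtcagaacagctg
Lhx9 held TGATAA once, on the reverse strand 59 bases before its start, and none of the other member windows held either form. Both forms of the NKX3-2 core, TAAGTG (9.2% of windows) and TGAGTG (16.4%), the LIM-homeodomain site TAATTA (5.29%) and the POU4F site TAATGA (9.78%) were found in 0 of the 13 windows. A match describes the letters of a window and is not a binding site. The study found most Bapx1 peaks distal to starts, and it names Gata3 among genes with Bapx1 and Sox9 sites within a far wider distance. Windows of this size cover little of that range.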

How the data were processed

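Per the labels, cRNA made with TargetAmp-Nano was hybridized to Illumina MouseWG-6 v2.0 BeadChips, and the authors exported background-subtracted intensity from GenomeStudio, of unstated version. The non-normalized table as deposited gives this intensity (28.0% to 31.4% of values below 0 per array, medians 5.6 to 10.1) beside a detection value equal to 1 minus the p-value. A second table from the authors has log2 values less a baseline for each probe, with a column for each sample of both genotypes. By the labels it runs null over wildtype. The baseline was not the wildtype mean or median, since all 4 wildtype columns of Lhx5 lay below 0 (-3.35 to -0.29). Which arrays set it is otherwise not known from these sources. Intensity rows carry array addresses only, so they were tied to probes by their values: 35665 of 45281 (78.76%) matched uniquely within 0.001 on 7 shared arrays. Null replicate numbers differ between the tables, and 1 null column of the log2 table matched no array. The text numbers replicates as the intensity table does. The platform annotation gives 34885 probes 1 gene and 18 several, and 10378 have no gene in it or are not listed. Probes named were those with 1 gene.

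Intensities were corrected by normexp (controls inferred from detection p, offset 16), quantile normalized and put on log2 (limma 3.58.1, statmod 1.5.0, R 4.3.3). Probes that at least 4 of 8 arrays detected (p under 0.05) were tested with lmFit and eBayes, with Benjamini-Hochberg adjustment over all 19965 and a threshold of 0.05. No p is given for a member. Lists used the brightest probe of each gene, and 12 lists of 175 distinct genes with the members were used. Members and lists were chosen with earlier results of these data known. Named were all member probes, up to 4 called genes per list or else the 2 of smallest p, the 5 genes most like Lhx5 and Gata3, and Nkx3-2; other genes named were chosen after their values were seen. The procedure was tested on simulated data. Alternatives covered background, scaling, filter, table, array weights, replicate block and left-out arrays. Tables were matched and drawn with matplotlib 3.10.9, pandas 2.3.3 and scipy 1.17.1 under Python 3.11.15.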

Additional observations from a re-analysis of the deposited data

Results flagged for a closer look

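A null column of the authors' log2 table matched none of the 4 null arrays of the intensity table, so it held a signal that the comparisons above did not use. Its intensities were recovered from the log2 values, floored at 1, by a procedure that returned the 7 known columns to within 5.1e-05 on the log2 scale. It is 1 array with no detection p-value, no normalization to the others and no test, and its median over matched probes, 19.2, lay within the ranges of the null arrays (16.1 to 26.4) and of the wildtype arrays. Over tested probes its correlation was 0.984 with null replicate 1, 0.970 to 0.974 with null replicates 2 to 4, 0.956 with wildtype replicate 2 and 0.976 to 0.981 with the other 3 wildtype arrays. By these intensities 6 of the 7 member probes that passed the filter lay above every wildtype array, as did 20.0% of all tested probes: Gata3 at 92.3 (wildtype 4.9 to 16.4), Gata2 at 142.2 (44.0 to 80.8), Pou4f1 at 118.4 (19.7 to 82.9), Lhx1 at 177.2 (33.0 to 137.9) and at 34.1 by its dimmer probe (12.6 to 31.8), and Lhx5 at 13.8 (1.3 to 8.2). Gata3 and Gata2 lay within the range of the 4 null arrays (30.7 to 96.0 and 56.3 to 196.6), and Lhx5, both Lhx1 probes and Pou4f1 lay below it (null ranges 30.6 to 90.4 for Lhx5, 199.3 to 518.0 and 77.5 to 225.1 for the brighter and the dimmer Lhx1 probe, and 140.5 to 236.4 for Pou4f1). Isl1, at 343.9, lay within the ranges of both genotypes. Lhx2, Tlx3, 1 Pax2 probe and both other Pou4f1 probes were at the floor there, and the other Pax2 probe was at 4.3. Of 14 groups of 4 member values examined, 0 held an array far enough from the others to be marked.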

How the results depend on the processing

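The differences of Gata3, Lhx5, Pou4f1 and both Lhx1 probes were positive under every alternative run, and that of Isl1 negative, whereas Gata2 ranged from -0.20 to 0.95 and was negative in 3 of 20. Changes of the filter and the replicate block leave a difference as it is, so those runs could not turn a sign. Where the genotypes did not overlap, leaving out an array could hardly do so either. Lhx5 and Gata3 also entered the choice of the genes, so nothing is read from the shared sign. Sizes moved beyond the replicate spread for Gata3 with an intensity floor of 16 without normexp (1.56), an offset of 50 (0.67) and the authors' log2 table (2.24), and for Lhx5 with an offset of 50 (0.67) and the log2 table (3.36); that table rests on 1 other null array. The number of calls depended on the setting, and the cause was not tested unless stated. In the order all probes, member probes and genes of the lists, 156, 2 and 12 were called in the main fit, 99, 1 and 7 with the floor of 16, 1, 0 and 0 with median and median absolute deviation scaling, 16, 0 and 1 in the log2 table, 75, 0 and 6 with no filter, and 6190, 4 and 40 with array weights, where Isl1, as lower, and the dimmer Lhx1 probe were called beside Gata3 and Lhx5. Member calls were 1 with an offset of 50 and 0 with detection on all 8 arrays, which left 4 member probes to test and so took out Lhx5 and Gata3. Leaving out each array in turn gave 29 to 3168, 0 to 3 and 3 to 26, with the highest count of all probes without null replicate 1, and leaving out null replicate 1 and wildtype replicate 2 gave 3970, 2 and 28. Median centring gave 109 calls, 79.8% of them higher against 49.4% in the main fit, and shifted the median of all probes to 0.19, and 18.8% were higher in the log2 table; scaling by the median absolute deviation shifted that median to -0.26. Quantile normalization after log2, chosen after seeing the data, gave 172 calls and the same 2 members. With the replicate number as a block, 20, 0 and 0 were called. Same-numbered arrays did not deviate together (correlations -0.05, -0.11, -0.20 and 0.04), but these values cannot show whether such arrays shared a preparation. A chip block was not run, as the columns name no chip. The correlation of Gata2 with Gata3 was -0.61 in the main setting, -0.80 with median centring, -0.76 with the median absolute deviation, -0.31 in the log2 table, -0.82 without null replicate 1 and wildtype replicate 2, and -0.78 to -0.51 leaving out 1 array. That of Lhx1 with Lhx5 was 0.72, and 0.61 with the floor, 0.58 with median centring, 0.63 with the median absolute deviation, 0.55 in the log2 table, 0.91 without those 2 arrays and 0.64 to 0.82 leaving out 1. Of the 10 genes most like Lhx5 or Gata3, 3 were shared with Spearman's rho, 3 with the floor, 5 with the median absolute deviation, 0 with median centring, the log2 table or without those 2 arrays, and 0 to 5 leaving out 1, so these lists are not stable. Signals of Lhx5 and Gata3 in the wildtype lie at or near background, which limits their folds.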
